A study of Homo sapiens with 6 samples.

Results

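The genes described here are 9 long human genes of synaptic adhesion and scaffold proteins, catenins and auxiliary potassium channel subunits: NRXN3, NLGN1, LRRTM4, MAGI2, DLG2, CTNNA2, CTNNA3, DPP6 and DPP10. They were chosen by name, as long neuronal adhesion, scaffold and catenin genes of a class known to be sensitive to topoisomerase loss in neurons, out of 19974 protein-coding RefSeq genes on chromosomes 1 to 22 and X. Their bodies span 774692 to 2173362 bp. All measurements were made in HCT116, a human colorectal carcinoma line and not a neuron, and the lists analysed hold no expression values.

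LaminB1 was profiled by CUT&RUN, in which an antibody-bound nuclease releases the chromatin around its target, so regions rich in reads mark sequence close to the nuclear lamina. The double loss group was the TOP2A mAID/TOP2B -/- line, given 500 uM indole-3-acetic acid (auxin) for 8 h to degrade TOP2A, by up to 95% according to the series text. The control group was the TOP2A mAID parent line, labelled wildtype, for which the names of the deposited lists say that no auxin was added. Both lines carry the degron tag on TOP2A, and both were arrested in G1 by 2 uM palbociclib over 28 h. There were 2 LaminB1 libraries and 1 IgG library per group, and the labels do not tell whether the 2 libraries of a group came from separate cultures, so every p below measures the spread between these libraries only.

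Type II topoisomerases pass one DNA duplex through another and relieve the torsional stress that builds up ahead of and behind a transcribing polymerase, and long genes collect more of it than short ones. Lamina-associated domains are broad, gene-poor stretches at the nuclear periphery in which most genes are silent. Genes for neuronal adhesion molecules often lie in such domains in cells that are not neurons.

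The covered share, the percentage of a gene body inside called LaminB1 regions, set the 9 genes far apart from each other. NLGN1 and DLG2 were at least 85% covered in every library, and LRRTM4, CTNNA2, CTNNA3 and DPP10 were under 25% covered in every library. NRXN3 and DPP6 lay between, and MAGI2 was the gene whose groups stood farthest apart. The order of the double loss means was NLGN1, DLG2, NRXN3, DPP6, MAGI2, CTNNA3, DPP10, CTNNA2 and LRRTM4. Among neighbours in that order, the double loss libraries of CTNNA3 and DPP10, and of DPP10 and CTNNA2, overlapped, and those of the other pairs did not.

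**Figure D1:**
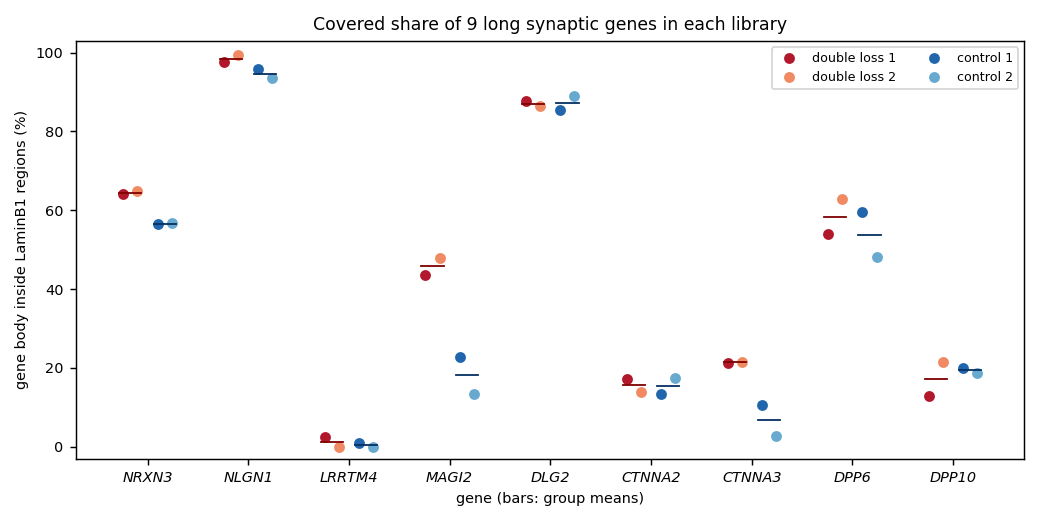
Percentage of each gene body inside LaminB1 regions (y axis) for the 9 genes (x axis), with 1 point per library, double loss libraries in red tones and control libraries in blue tones, and bars at the group means. MAGI2 (43.6% and 48.0% in double loss, 22.8% and 13.4% in control) and CTNNA3 (21.3% and 21.5% in double loss, 10.5% and 2.81% in control) show the widest gaps between groups, and NLGN1 and DLG2 sit near the top in all 4 libraries.

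None of the 9 genes passed limma at an adjusted p under 0.05, where the same test called 1.67% of 3058 genes with covered sequence higher and 0.981% lower in double loss. At an unadjusted p under 0.05 limma had 1 of the 9, MAGI2, beside 476 of the 3058 genes in either direction. Values of double loss 1 and 2 both exceeded the controls in 4 genes, NRXN3, NLGN1, MAGI2 and CTNNA3, and lay below both in 0. That background was 21.5% above and 13.9% below over all covered genes, but 43.1% above and 20.6% below among the 102 other covered genes at least as long as LRRTM4, the shortest of the 9. The 4 of 9 (44.4%) is therefore near the share of equally long genes. The median difference, double loss minus control, was 3.78 points for the 9 genes, 0.77 points for all covered genes and 1.46 points for the other long genes. For the 9 genes it was 2.11 points without double loss 2, 2.22 without control 2 and 1.67 with regions closer than 10 kb merged. With 2 libraries against 2, an exact permutation test of a single value has 6 assignments and cannot give a p under 0.333.

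NRXN3 encodes neurexin 3, a presynaptic adhesion receptor that binds neuroligins and LRRTM proteins across the synaptic cleft. It lies at chr14:78170373-79868291 on the plus strand. It was covered at 64.1% and 64.9% in double loss 1 and 2, against 56.4% and 56.7% in control 1 and 2. The double loss libraries were both above the controls, by 7.94 points between the means (64.5% ± 0.583 in double loss and 56.5% ± 0.208 in control, SD, n = 2 each), and limma gave an adjusted p of 0.589.

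The 250 bases before each of its 3 RefSeq start sites are shown because the libraries differ over them. They were read from RefSeq, GRCh38.p14, 5′ to 3′ on the gene's strand, with CG dinucleotides in capitals. Promoter 1 lies at chr14:78170123-78170372, promoter 2 at chr14:78403469-78403718 and promoter 3 at chr14:79279130-79279379.
NRXN3 promoter 1: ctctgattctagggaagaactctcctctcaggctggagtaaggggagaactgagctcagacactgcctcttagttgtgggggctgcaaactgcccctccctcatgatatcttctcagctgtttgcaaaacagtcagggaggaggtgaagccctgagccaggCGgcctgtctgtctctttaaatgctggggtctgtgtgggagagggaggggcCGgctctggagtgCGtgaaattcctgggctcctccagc
NRXN3 promoter 2: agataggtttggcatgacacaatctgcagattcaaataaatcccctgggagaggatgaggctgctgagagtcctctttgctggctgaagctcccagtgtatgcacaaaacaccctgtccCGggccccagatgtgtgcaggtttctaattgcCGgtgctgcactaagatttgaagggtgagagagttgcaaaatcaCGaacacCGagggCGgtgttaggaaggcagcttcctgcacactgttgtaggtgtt
NRXN3 promoter 3: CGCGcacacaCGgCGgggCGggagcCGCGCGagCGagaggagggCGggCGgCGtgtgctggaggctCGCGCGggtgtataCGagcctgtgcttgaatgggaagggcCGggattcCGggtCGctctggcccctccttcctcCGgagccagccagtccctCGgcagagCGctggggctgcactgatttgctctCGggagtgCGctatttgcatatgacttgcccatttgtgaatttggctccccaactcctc
CG was searched as these 2 letters, which read the same on both strands, and 96.8% of 22132 promoters of protein-coding genes hold it. Promoter 1 holds 3 CG at a GC content of 56.8%, promoter 2 holds 5 at 51.2% and promoter 3 holds 24 at 66.4%.

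Promoter 1 of NRXN3 lay inside a region in both controls, 114 and 55.4 kb from its nearest edge in control 1 and 2. It lay in no region of double loss 1 or 2, where the nearest region began 5.63 and 3.63 kb after it. It was the only one of 31 promoters of these genes that was covered in both lists of one group and in neither of the other, where 0.619% of 22132 promoters of all protein-coding genes were in both double loss lists only and 0.497% in both control lists only. With each body divided into 4 segments of equal length, numbered from the gene start, segment 1 of NRXN3 was covered at 95.4% and 96.1% in double loss, against 95.1% and 96.5% in control. Promoter 2 was inside a region in double loss 1 and control 1, and promoter 3 in double loss 1 only.

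The LaminB1 pattern along NRXN3 split in the middle. In segment 2 the shares were 76.4% and 83.2% in double loss and 95.2% and 83.5% in control, so both double loss libraries were below both controls. In segment 3 they were 60.2% and 29.2% in double loss and 21.0% and 24.4% in control. In segment 4 they were 24.3% and 51.1% in double loss and 14.4% and 22.4% in control. In segments 3 and 4 the 2 double loss libraries were above both controls, but which of them was higher changed from one to the other. All 13 of the 20 kb steps that were at least 50 points higher in double loss lay between 889.6 and 1469.6 kb after the gene start. The largest difference, 92.5 points, was at chr14:79560001-79580000, with 85% and 100% in double loss and 0% in both controls. The longest stretch in all 4 lists was the 147 kb of chr14:78228001-78375000, near the start. The 500 kb before the gene were at 52.4% and 57.8% in double loss and 60.9% and 59.5% in control, and the 500 kb after it at 59.6% and 65.9% in double loss and 54.7% and 52.3% in control.

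NLGN1 encodes neuroligin 1, the postsynaptic partner of neurexins at excitatory synapses. It lies at chr3:173395952-174294372 on the plus strand and was covered at 97.6% and 99.3% in double loss, against 95.9% and 93.4% in control. The groups did not overlap, with 98.4% ± 1.26 in double loss against 94.7% ± 1.73 in control (SD, n = 2 each), a difference of 3.78 points and a limma adjusted p of 0.402. All 4 lists covered 88.6% of the body, and no 1 kb of it was outside all lists. Counting regions with at least 50% of their length in the body, double loss 1 and 2 had 5 and 1, against 6 and 11 in control 1 and 2. The single one of double loss 2 was 1412 kb long and began before the gene.

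NLGN1 regions ranked high within their own lists by the authors' log2 fold of LaminB1 over control library reads, a value used here only within a list. The median over the gene stood at percentiles 96.5 and 96.7 of the double loss lists and 88.2 and 91.7 of the control lists. Its first promoter is shown because a GC-rich start site lay deep inside a domain in all 4 lists.
NLGN1 promoter 1, chr3:173395702-173395951, plus strand: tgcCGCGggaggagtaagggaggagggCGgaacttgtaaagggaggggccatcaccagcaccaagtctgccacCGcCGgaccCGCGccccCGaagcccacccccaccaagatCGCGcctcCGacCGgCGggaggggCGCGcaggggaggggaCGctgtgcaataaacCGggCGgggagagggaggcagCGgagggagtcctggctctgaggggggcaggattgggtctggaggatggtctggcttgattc
The sequence holds 19 CG at a GC content of 69.2%. It was 160 and 548 kb from the nearest region edge in double loss 1 and 2, and 70.0 and 109 kb in control 1 and 2.

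The difference near NLGN1 was larger after the gene end than inside the gene. Inside it the controls were already at 95.9% and 93.4%, near the upper limit of a share. The part of that limit in the smaller difference was not tested. The 500 kb after the gene end were covered at 94.4% and 96.8% in double loss, against 55.5% and 55.6% in control. The next gene by coordinate, NAALADL2, lies 147 kb beyond NLGN1 and was covered at 94.4% and 95.8% in double loss, against 33.6% and 30.2% in control. The groups did not overlap there, and limma gave NAALADL2 an adjusted p of 0.0597, which missed the threshold. The 500 kb before NLGN1 were at 99.2% and 100% in double loss and 97.2% and 98.2% in control.

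LRRTM4 encodes a leucine-rich repeat protein of the postsynaptic membrane, another neurexin ligand. It lies at chr2:76747685-77522376 and had almost no LaminB1 sequence, at 2.58% and 0% in double loss and 0.944% and 0% in control. One library of each group had a short piece at the low-coordinate end, and the groups overlapped (difference 0.82 points, limma adjusted p = 0.935). The remaining 750 kb were in no list.

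MAGI2 encodes a membrane-associated guanylate kinase with PDZ domains that scaffolds receptors at the postsynaptic density. It lies at chr7:78017055-79453667 on the minus strand. It was covered at 43.6% and 48.0% in double loss, against 22.8% and 13.4% in control. The groups did not overlap, with means of 45.8% ± 3.05 in double loss against 18.1% ± 6.69 in control (SD, n = 2 each) and a difference of 27.7 points. By limma its unadjusted p was 0.0298 and its adjusted p 0.248, so MAGI2 did not pass over all genes. Leaving out 1 library at a time gave differences of 22.97 to 32.4 points.

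The start of MAGI2 was free of LaminB1 regions, and the difference lay further into the body. Its only promoter in the table is shown because it lies inside uncovered sequence, which continues before the gene start.
MAGI2 promoter 1, chr7:79453668-79453917, minus strand: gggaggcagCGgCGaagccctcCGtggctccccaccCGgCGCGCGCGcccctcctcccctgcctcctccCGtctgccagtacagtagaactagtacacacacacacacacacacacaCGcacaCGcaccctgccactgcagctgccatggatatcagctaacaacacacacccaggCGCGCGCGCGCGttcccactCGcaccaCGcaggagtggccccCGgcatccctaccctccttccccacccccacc
The sequence holds 20 CG at a GC content of 68.0%. The nearest region was 319 and 337 kb away in double loss 1 and 2, and 300 and 541 kb away in control 1 and 2. The first 300 kb of the body, chr7:79154001-79454000, were in no list.

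In segment 1 MAGI2 was covered at 8.63% and 6.26% in double loss, against 8.35% and 0% in control, and the groups overlapped. In segment 2 it was at 46.7% and 66.9% in double loss, against 17.7% and 13.3% in control. Segment 3 was at 64.6% and 48.8% in double loss, against 22.7% and 19.0% in control, and segment 4 at 54.6% and 69.9% in double loss, against 42.6% and 21.2% in control. The groups did not overlap in any of segments 2, 3 and 4. Of its 72 steps, 23 were at least 50 points higher in double loss and 0 at least 50 points lower. The step chr7:78660001-78680000 was at 100% in both double loss libraries and at 0% in both controls. It lies in the longest stretch of both double loss lists only, the 38 kb of chr7:78646001-78684000.

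Sequence around MAGI2 was nearly free of LaminB1 regions in both groups. The 500 kb before its start were at 4% and 0% in double loss and 0% in both controls, and the 500 kb after its end were at 0% in all 4 lists. PHTF2 and GNAI1, the genes on either side, were at 0% in every list. MAGI2 held 16 and 18 regions in double loss, against 13 and 9 in control. By the authors' log2 fold their median stood at percentiles 63.5 and 55.2 of the double loss lists, against 36.2 and 52.8 of the control lists.

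**Figure D2:**
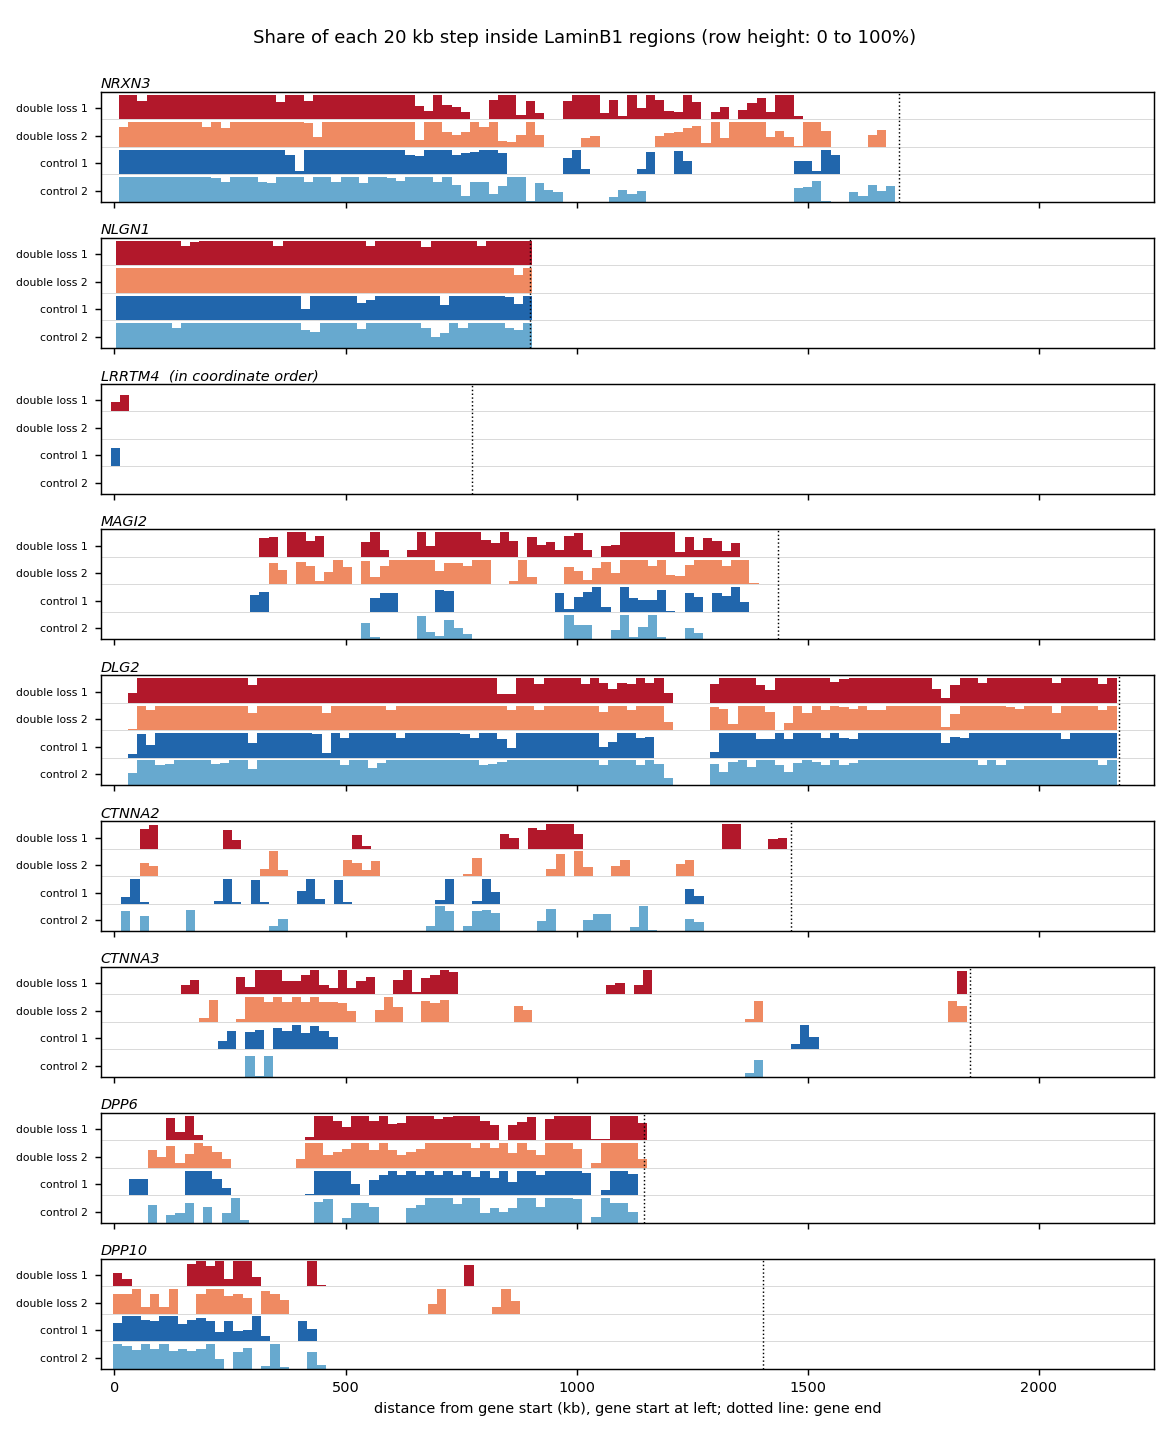
Covered share of 20 kb steps along each gene, as bars rising from 0 to 100% within 1 row per library (double loss above control), against distance from the gene start in kb, with the gene end dotted. LRRTM4 is drawn in coordinate order. NLGN1 and DLG2 are filled in all rows along most of their length, with a gap in every row of DLG2 at 1196 to 1289 kb, MAGI2 is empty in all rows near its start and denser in both double loss rows after that, and coverage of DPP10 ends well before the gene does.

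DLG2 encodes a membrane-associated guanylate kinase, a scaffold of the postsynaptic density that anchors glutamate receptors. It lies at chr11:83455012-85628373 on the minus strand and is the longest of the 9. It was covered at 87.6% and 86.4% in double loss, against 85.3% and 89.0% in control, with control 2 highest and control 1 lowest, so the groups overlapped (difference -0.16 points, limma adjusted p = 1). All 4 lists covered 73.6% of the body, in 49 separate stretches, the longest being the 151 kb of chr11:84861001-85012000. Segment 4 was at 91.9% and 91.5% in double loss and 96.3% and 97.8% in control, the one segment of DLG2 where both double loss libraries were below both controls. The domain is broken inside the gene by the 93 kb of chr11:84339001-84432000, 1196 to 1289 kb after the gene start, which lay in no list, and 5 of the 108 steps of DLG2 were empty in all 4 lists.

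The start of DLG2 sits outside its domain. The 500 kb before it were at 0% in all 4 lists, and the most upstream promoter was 40.4 and 47.4 kb from the nearest region in double loss and 45.4 and 38.4 kb in control. A start site inside the body with similar GC content lay inside regions of all 4 lists, and the pair is shown to set them side by side.
DLG2 promoter 1, chr11:85628374-85628623, minus strand: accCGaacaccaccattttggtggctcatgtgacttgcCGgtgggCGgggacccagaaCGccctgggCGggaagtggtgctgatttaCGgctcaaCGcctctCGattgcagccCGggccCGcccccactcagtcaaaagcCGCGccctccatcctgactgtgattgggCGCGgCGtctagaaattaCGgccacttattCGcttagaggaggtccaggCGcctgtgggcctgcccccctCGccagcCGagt
DLG2 promoter 4, chr11:84720943-84721192, minus strand: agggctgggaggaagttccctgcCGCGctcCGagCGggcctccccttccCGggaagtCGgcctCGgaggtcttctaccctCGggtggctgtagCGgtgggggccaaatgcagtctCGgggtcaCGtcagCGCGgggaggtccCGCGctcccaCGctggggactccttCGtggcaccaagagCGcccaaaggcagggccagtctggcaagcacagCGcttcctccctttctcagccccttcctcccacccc
Promoter 1 holds 20 CG at a GC content of 64.0%, and promoter 4 holds 19 at 69.2%. Of the 9 DLG2 promoters 5 were in all 4 lists, 2 in 3 lists and 2, the most upstream ones, in none.

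CTNNA2 and CTNNA3 encode alpha-catenins, which link cadherins to actin, CTNNA2 in neurons and CTNNA3 mainly in heart and testis. CTNNA2 lies at chr2:79185377-80648780 on the plus strand and was covered at 17.2% and 13.9% in double loss, against 13.3% and 17.4% in control. The groups overlapped (difference 0.17 points, limma adjusted p = 1). No 1 kb of CTNNA2 was in all 4 lists, 46 kb were in both double loss lists only and 63 kb in both control lists only. Another 592 kb were in other combinations of lists, so libraries of the same group also covered different places. Of its 73 steps, 7 were at least 50 points higher and 8 at least 50 points lower in double loss. At chr2:80140001-80160000 double loss was at 100% and 90% and both controls at 0%. At chr2:79980001-80000000 both double loss libraries were at 0% and the controls at 100% and 85%.

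CTNNA3 lies at chr10:65912523-67763594 on the minus strand. It was covered at 21.3% and 21.5% in double loss, against 10.5% and 2.81% in control. The groups did not overlap, with 21.4% ± 0.191 in double loss against 6.67% ± 5.46 in control (SD, n = 2 each), a difference of 14.7 points and a limma adjusted p of 0.381. The controls differed from each other by more than the lower of them was covered, and with only the 50% of regions highest in the authors' log2 fold the difference was 7.73 points.

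The CTNNA3 difference was largest in segment 2 of the body, at 33.7% in both double loss libraries, against 2.34% and 0% in control. Segment 1 was at 35.9% and 40.2% in double loss, against 32.5% and 7.56% in control, so control 1 came close to double loss there and control 2 did not. In segments 3 and 4 the highest value was 10.8%, in double loss 2. The longest stretch in both double loss lists only was the 24 kb of chr10:67042001-67066000. It lies in LRRTM3, a gene for another neurexin-binding leucine-rich repeat protein nested inside CTNNA3. LRRTM3 was covered at 38.2% and 28.5% in double loss and 0% in both controls (limma adjusted p = 0.0749), and this sequence is counted in both genes.

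The upstream CTNNA3 promoter is shown as a start site far from any region with few CG, in contrast to that of MAGI2.
CTNNA3 promoter 1, chr10:67696196-67696445, minus strand: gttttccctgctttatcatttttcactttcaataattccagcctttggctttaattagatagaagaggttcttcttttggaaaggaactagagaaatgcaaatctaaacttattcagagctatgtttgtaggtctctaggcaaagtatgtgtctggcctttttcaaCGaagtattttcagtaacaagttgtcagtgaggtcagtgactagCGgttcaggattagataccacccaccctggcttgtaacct
It holds 2 CG at a GC content of 38.8%. It was in no list, 88.2 and 133 kb from the nearest region in double loss 1 and 2 and 169 and 217 kb in control 1 and 2.

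**Figure D3:**
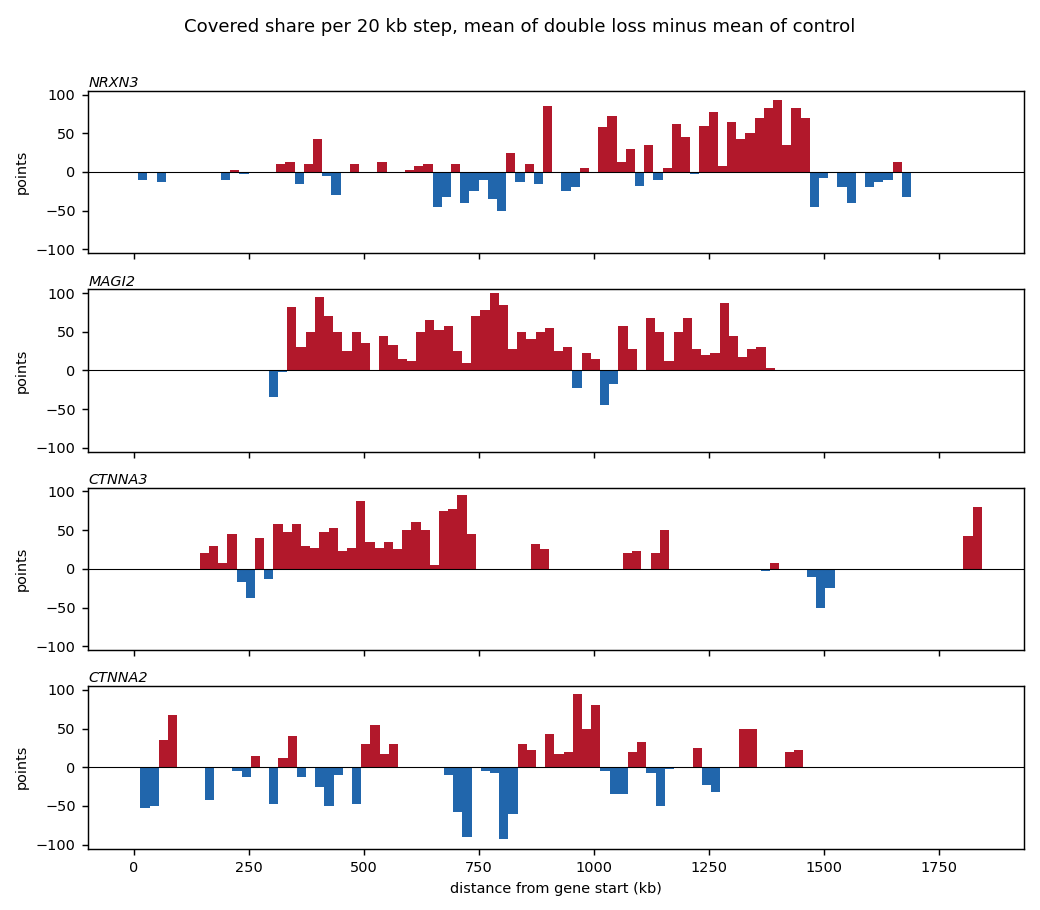
Difference in covered share of 20 kb steps, mean of double loss minus mean of control in percentage points, against distance from the gene start in kb, for NRXN3, MAGI2, CTNNA3 and CTNNA2 (red above 0, blue below). MAGI2 is above 0 over most of its body after the first 300 kb, NRXN3 mainly between 889.6 and 1469.6 kb, and CTNNA2 has steps of up to 95 points in one direction and 92.5 in the other.

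DPP6 and DPP10 encode single-pass membrane proteins of the dipeptidyl peptidase family that lack enzyme activity and serve as auxiliary subunits of Kv4 potassium channels. DPP6 lies at chr7:153748133-154894285 on the plus strand and was covered at 54.0% and 62.7% in double loss, against 59.5% and 48.2% in control. Each group had 1 higher and 1 lower library, and the groups overlapped (difference 4.55 points, limma adjusted p = 0.832). Kept to the 50% of regions highest in log2 fold, the difference was 18.0 points. Coverage lay mainly in the second part of the gene. Segment 4 was at 74.4% and 77.5% in double loss, against 78.9% and 73.3% in control, while segment 1 was at 17.1% and 39.8% in double loss, against 36.6% and 30.4% in control.

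DPP10 lies at chr2:114442641-115845780 on the plus strand and had its lower mean in double loss. It was covered at 13.0% and 21.5% in double loss, against 20.1% and 18.8% in control, with both the lowest and the highest value in double loss (difference -2.15 points, limma adjusted p = 0.849). Segment 1 held most of this, at 41.1% and 63.2% in double loss, against 72.8% and 68.4% in control, where both double loss libraries were below both controls. The 500 kb before DPP10 were also lower in double loss, at 58.0% and 57.7%, against 71.5% and 66.3% in control. The last 536 kb of the body, chr2:115310001-115846000, were in no list. Its most upstream promoter was in 3 lists, all but double loss 1, and the promoter 18.9 kb further in was in all 4.

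**Figure D4:**
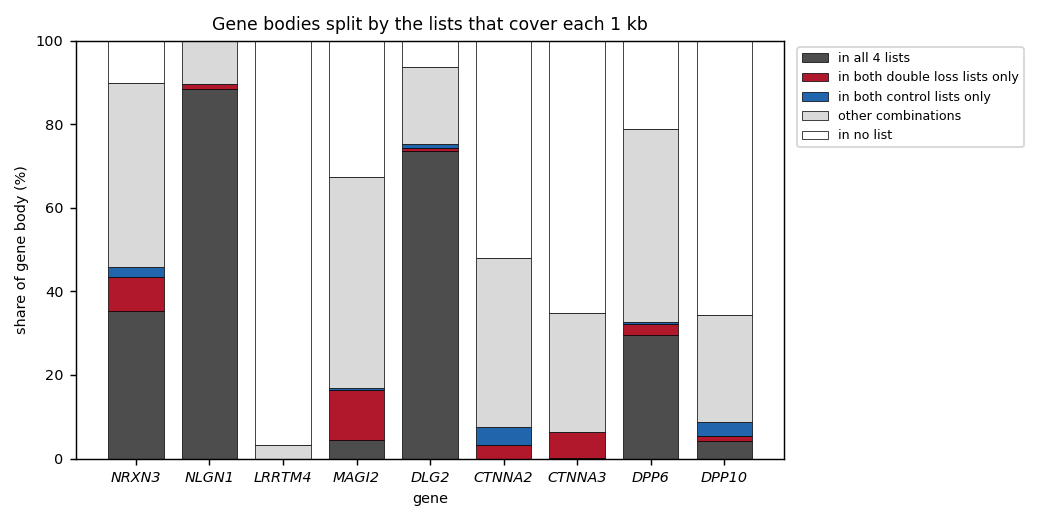
Share of each gene body (y axis, %) split by the lists that cover each 1 kb, as stacked bars from dark grey (in all 4 lists) to white (in no list), with red for sequence in both double loss lists only and blue for both control lists only. Red is widest in MAGI2 at 12.0% and NRXN3 at 8.24%, and blue is widest in CTNNA2 at 4.303%.

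Counted by 1 kb, the 9 genes together held 3461 kb in all 4 lists, 543 kb in both double loss lists only and 181 kb in both control lists only, of 12853 kb. As a share of sequence in any list these were 42.2%, 6.63% and 2.21%, beside 37.6%, 6.41% and 4.43% genome-wide. A further 4010 kb of the 9 genes were in other combinations of lists, where libraries of the same group disagreed. MAGI2, NRXN3 and CTNNA3 held 172, 140 and 113 kb of the sequence in both double loss lists only.

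The 9 genes have 641 steps of 20 kb, of which 459 were covered by at least 5% in 1 list and 182 were empty in all 4. Limma called 8 of the 459 higher at an adjusted p under 0.05 (1.74%), beside 1.71% of 50358 steps genome-wide, and 1 lower (0.218%), beside 1.17%. The members' share higher is near the background. Of the 8, MAGI2 held 3, CTNNA3 and DLG2 held 2 each and CTNNA2 held 1, and the 1 lower step was in DPP10, all at a limma adjusted p of 0.0476. Libraries of a group were equal in 5 of these 9 steps and at most 10 points apart in the others, so the calls rest on small spreads. Both DLG2 steps were at 100% in both double loss libraries and at 80% in both controls. Limma called 0 member steps in either direction with untransformed shares, where 37 higher and 14 lower had an unadjusted p under 0.05. It also called 0 with an equal number of regions per list, where those counts were 37 and 13. Genome-wide these fits called 0 of 50358 and 0 of 47660 steps as well. At an unadjusted p under 0.05 they had 6038 and 5287 of those steps, both directions together. With 1 library left out, calls grew in number over all steps, and the members' shares are given beside those of all steps tested. Without double loss 1, limma called 64 member steps higher (14.8%, beside 13.3% of all steps) and 16 lower (3.70%, beside 6.63%). Without double loss 2 it called 67 higher (15.5%, beside 13.1%) and 22 lower (5.09%, beside 7.11%). Without control 1 the calls were 48 higher (10.9%, beside 8.49%) and 20 lower (4.52%, beside 7.35%), and without control 2 they were 26 higher (5.84%, beside 4.68%) and 18 lower (4.04%, beside 6.14%). The members' share higher stayed near that of all steps in each of these fits.

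By size alone, 64 of the 459 steps (13.9%) were at least 50 points higher in double loss, beside 10.9% genome-wide, and 15 (3.27%) at least 50 points lower, beside 7.28%. Both double loss libraries were above both controls in 75 steps (16.3%), beside 14.1%, and below both in 22 (4.79%), beside 9.8%. MAGI2, NRXN3 and CTNNA3 held 23, 13 and 12 of the 64 higher steps, and CTNNA2 held 8 of the 15 lower ones. Steps of 1 gene can share a region and are not independent.

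Reads inside regions numbered 7263458 to 8351031 per LaminB1 library, over 549 to 622 Mb, and total depth is unknown. Where the 2 lists of a group share a region with identical edges, the control library count was identical too, in 61 of 61 regions for double loss and 44 of 44 for control, so each group has a control library of its own. Effects of that library, of the line, of the TOP2B genotype and of auxin cannot be told apart. Inside the members' regions the density of control library reads, over the mean of the same list, was 0.837 to 0.950 in double loss and 0.798 to 0.958 in control. For MAGI2 it was 0.883 and 0.895 in double loss and 0.897 and 0.902 in control. LaminB1 read density over the mean of the list was 0.923 and 0.905 for MAGI2 in double loss and 0.850 in both controls. The part of these densities in the differences was not tested.

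**Figure D5:**
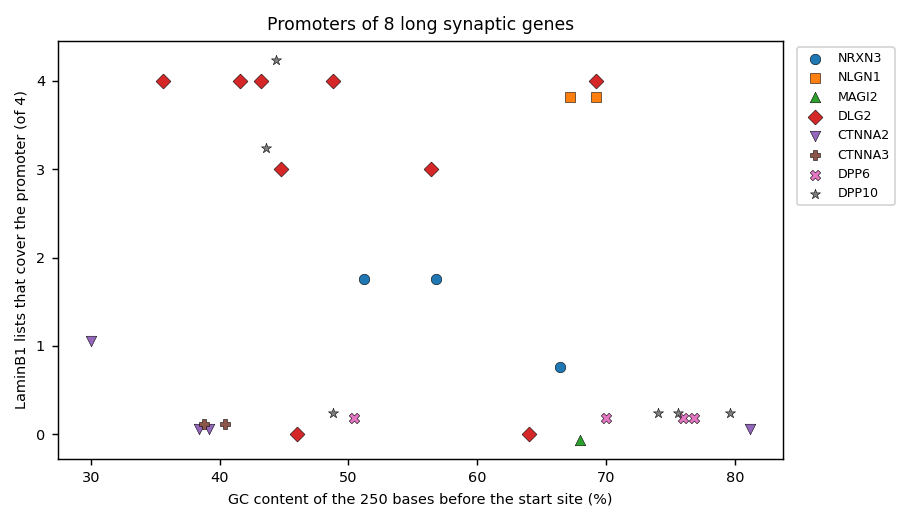
Number of LaminB1 lists, of 4, that cover each of 31 promoters of 8 genes (y axis, symbols of a gene set slightly apart in height) against the GC content of the 250 bases before the start site (x axis, %). DLG2 has 5 and NLGN1 has 2 of the 8 covered in all 4 lists, and the promoters of MAGI2 and CTNNA3 are in none.

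The promoter table matched 8 of the 9 genes with 31 promoters, LRRTM4 being the one without. Of these promoters 8 were in all 4 lists (25.8%), 16 in none and 7 in 1 to 3 lists. Among 22132 promoters of 15812 protein-coding genes 2.57% were in all 4 lists and 90.5% in none. Median GC content was 46.6% for members' promoters in all 4 lists and 66.0% for those in none, beside 46.4% and 62.8% over all genes. At least 60% GC was found in 13 members' promoters, of which 3 were in all 4 lists, the pair of NLGN1 and promoter 4 of DLG2. The most upstream promoter was in no list for 5 of the 8 genes and in all 4 lists for NLGN1 only. Promoters of 1 gene can overlap or share a region, so these are counts and not independent samples.

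Of 24 relatives (other neurexins, neuroligins, LRRTM, MAGI, DLG, catenin and dipeptidyl peptidase genes) 7 had any LaminB1 sequence. Over all protein-coding genes 3058 of 19974 had any. Limma called 0 of the 7 in either direction. It had 2 of them (LRRTM3 and DPP4) at an unadjusted p under 0.05, beside 476 of the 3058. The 7 had a median length of 176 kb and the 17 without 57.7 kb. Both double loss libraries were above both controls in 3 of the 7 and below both in 1, beside 21.5% above and 13.9% below over all covered genes. The median difference was 14.2 points, which is the value of LRRTM1, a gene covered in 1 library. DPP4, the enzymatically active relative of DPP6 and DPP10, was at 29.3% and 21.96% in double loss and 0% in both controls (limma adjusted p = 0.0838). FAP, a membrane protease gene of that family, was at 100% and 74.2% in double loss and 78.0% and 71.1% in control, and LRRTM1, nested in CTNNA2, was covered in double loss 2 only, at 28.3%.

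Of 53 other synaptic adhesion, scaffold and Kv4 channel genes 21 had any LaminB1 sequence, beside 3058 of all 19974 protein-coding genes. The median difference of the 21 was 0.41 points. Of the 21, 7 were above both controls and 5 below both. Over all covered genes 21.5% were above and 13.9% below. Among other covered genes at least as long as LRRTM4 the shares were 43.1% and 20.6%. Limma called 0 of the 21 higher and 1 lower, CBLN4, the gene of a secreted cerebellin. CBLN4 was at 0% in both double loss libraries and 100% in both controls (limma adjusted p = 0.0142). It lies on chromosome 20, where control library read density over the list's mean was 1.08 and 1.09 in double loss and 1.37 in both controls, and the part of that in the difference was not tested. KCND2 and KCND3 encode pore-forming Kv4 channel subunits, the partners of DPP6 and DPP10. KCND2 was at 87.4% and 89.9% in double loss and 52.9% and 59.4% in control (limma adjusted p = 0.134). KCND3 was at 29.2% and 40.2% in double loss and 11.9% and 0% in control (limma adjusted p = 0.404). DLGAP2, of the scaffold proteins that bind DLG proteins, was at 33.6% and 45.1% in double loss and 15.1% and 20.3% in control (limma adjusted p = 0.327). CADM3, a synaptic cell adhesion gene, was at 56.8% and 0% in double loss and 83.2% and 86.4% in control (limma adjusted p = 0.568).

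Among 492 other protein-coding genes of at least 300 kb, likeness was measured as the distance between covered shares over the 4 libraries, in points. PPFIA2, a liprin-alpha gene, came closest to MAGI2 at 7.46 points. PLD5 came closest to NLGN1 at 1.96 points and IQCJ-SCHIP1 to NRXN3 at 8.61. PDE10A came closest to DLG2 at 6.07 points, SDK1 to CTNNA2 at 5.20, IQCJ-SCHIP1 to DPP6 at 10.1, GPC5 to DPP10 at 6.70 and MDGA2 to LRRTM4 at 1.04.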

How the data were processed

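LaminB1 CUT&RUN region lists of 4 libraries, 2 per group, were analysed, and IgG samples were not used here on their own. The reads, pairs of 75 bp, went through Bowtie2 2.3.4.3 and Picard on genome build hg38, per the submitters' processing notes and the labels. The region caller is not given in the sources used here. Lists were called per library. For each region the authors deposited the counts of LaminB1 reads and of control library reads, as whole numbers. A p-value, an adjusted p-value and a log2 fold per region were deposited by the authors, per the file headers. The deposited score is 100 times the log2 fold, as tested on the values, and fold and score were used within a list only. Auxin in the control group was taken from the file names, since the labels give auxin treatment for the TOP2B -/- line only. No per-sample column was left unused.

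Covered shares were computed in base pairs with Python 3.11.15, numpy 2.4.6 and pandas 2.3.3. The split of gene bodies by lists and the stretches used units of 1 kb, counted as covered when most of the unit lay in a region. Left out were 1 or 2 regions per list outside chromosomes 1 to 22 and X. Gene positions came from the RefSeq table of GRCh38.p14, whose chromosome coordinates are those of hg38, and promoter sequences and strands from RefSeq. The strand of LRRTM4 was not used here. Regions over a gene are those with at least 50% of their length in it. Shares of gene bodies with any covered sequence, and of 20 kb steps covered by at least 5% in 1 list, were transformed to the arcsine of their square root and fitted with limma 3.58.1 (R 4.3.3) with a variance trend, and p-values were adjusted after Benjamini-Hochberg over all genes or steps, at a threshold of 0.05. A step belongs to a gene when its midpoint lies in the body. The fit was tested on simulated shares. Depth is known only as reads inside regions.

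The 9 genes and both lists of related genes were chosen with earlier results of these data known. From each list the text names the 5 covered genes with the largest difference of group means, and per gene the longest stretches and most different steps, the nearest neighbours and the most alike long genes. A few genes that these rules take are left out of the text. Other stretches, steps and promoters were named after their values were seen. The labels do not tell whether replicate numbers pair the libraries, and the main fits did not pair them. The replicate 1 minus 2 differences of both groups correlated at -0.02 over genes, which cannot show how the libraries were prepared.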

Additional observations from a re-analysis of the deposited data

How the results depend on the processing

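Limits: 2 libraries per group, called separately against 1 control library per group, give no check of that control library, and total depth is unknown. Of the 9 body differences, those of NRXN3, NLGN1, MAGI2 and CTNNA3 kept their direction in all 12 alternatives run, and no gene passed limma in any of them (adjusted p 0.144 to 0.538 for MAGI2 and 0.0812 to 0.605 for CTNNA3). Reversed differences, in points, were LRRTM4 at -0.47 without double loss 1, DLG2 at 1.70 without control 2 and 0.44 without double loss 2, CTNNA2 at -1.88 without control 1, -1.50 without double loss 1 and -0.17 with regions closer than 10 kb merged, DPP6 at -1.12 without control 2 and DPP10 at 2.14 without double loss 1. Over the fits that leave out 1 library, LRRTM4 ranged from -0.47 to 2.11 points, DLG2 from -2.02 to 1.70, CTNNA2 from -1.88 to 2.22, DPP6 from -1.12 to 10.2 and DPP10 from -6.44 to 2.14. The cause was not tested. The median over the 9 genes, 3.78 points, was 2.11 to 5.01 with 1 library left out and 1.67 with merged regions. Of the 9 genes, 0 to 2 were below both controls with 1 library left out. Over all covered genes 654 of 2918 (without control 1) to 826 of 2939 (without control 2) then were. With the 50% of regions highest in log2 fold 2 of 8 were below both, beside 263 of 2009 over all covered genes.

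Steps of 20 kb called by limma, 8 higher and 1 lower, numbered 26 to 67 higher and 16 to 22 lower with 1 library left out, where 4.68% to 13.3% of all steps were called higher (5.84% to 15.5% of the members') and 6.14% to 7.35% lower (3.70% to 5.09% of the members'). They numbered 14 (3.76%, beside 3.33% of all steps) and 5 (1.34%, beside 2.63%) with that 50% of regions. They were 0 and 0 with an equal number of regions (37 and 13 at an unadjusted p under 0.05) and with untransformed shares (37 and 14). The replicate block gave 0 and 0 (30 and 9 unadjusted). Limma called 0 steps genome-wide in these 3 fits. At an unadjusted p under 0.05 they had, in that order, 5287 of 47660, 6038 of 50358 and 4805 of 50358 steps, both directions together. Higher calls were 5 with steps at least 20% covered (1.11%, beside 1.56% of all steps) and 4 with 50 kb steps (2.03%, beside 1.26%). Lower calls were 2 with merged regions (0.436%, beside 1.47%). Steps above both controls, 75, numbered 106 to 127 with 1 library left out, where 21.0% to 27.8% of all steps were above. Steps below both, 22, numbered 44 to 62 there, where 17.1% to 20.2% of all steps were below. With 50 kb steps 48 were above (24.4%, beside 19.9% of all) and 13 below (6.60%, beside 13.3%). Steps at least 50 points higher, 64, numbered 69 to 84 with 1 library left out (13.2% to 15.9% of all steps were then). With 50 kb steps they numbered 15 (7.61%, beside 5.88% of all). Those at least 50 points lower, 15, numbered 19 to 34 with 1 library left out (9.15% to 11.6% of all steps were then). They numbered 27 with merged regions (5.88%, beside 8.56% of all) and 2 with 50 kb steps (1.02%, beside 3.96%). Longer steps are fewer by construction, and groups of fewer libraries overlap less easily. A fit with no filter on low shares could not be fitted, since 16916 of 19974 genes and 101069 of 151427 steps were at 0 in all lists.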
